A study of Mus musculus with 2 samples.

Results

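Toll-like receptors and their partners were followed in the kidneys of mice fed adenine, with and without 3-(4-hydroxy-3-methoxyphenyl)propionic acid (HMPA), a phenolic acid. The 10 genes were chosen by name: the receptors Tlr2, Tlr3, Tlr4, Tlr7 and Tlr13, the lipopolysaccharide-handling proteins Lbp, Cd14 and Ly96, the adaptor Myd88 and the inhibitor Irak3. The rule that picked them used gene symbols alone, though earlier results of these data were known when the list was drawn up. Of the 10 genes, 9 had a probe and all 9 were measured, out of 16692 genes measured in the whole series. Tlr13 had no probe in the files, so its expression was not analysed here.

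Both conditions were kidneys of male CD-1 mice on an AIN-93G diet with 0.2% adenine by weight (2 g per kg), which the labels give for 1 week from 7 weeks of age. The HMPA condition had 2% HMPA in the same diet, and the other had adenine alone. The titles instead give 12 weeks and 5 mice, without saying whether the number is per diet or whether RNA was pooled. The 2 conditions were hybridised together on 2 dual-colour arrays with the dyes swapped, HMPA in Cy5 on array 1 and in Cy3 on array 2. Adenine was in both diets and no kidney without adenine was on these arrays, so every ratio is HMPA over adenine alone and none is relative to a normal kidney. The labels name no separate animals for each array. The arrays were therefore read as repeat hybridisations of 1 RNA sample from each diet, with no p-value. The figure after ± is how far either array lay from the mean of both. It covers hybridisation and dye error and not the spread between animals.

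Toll-like receptors are membrane proteins that bind conserved parts of microbes and some molecules released by injured tissue. Most of them signal through the adaptor MyD88 to interleukin-1 receptor-associated kinases, and from there to NF-kappaB and mitogen-activated protein kinases, which switch on cytokine and chemokine genes. TLR3 uses the adaptor TRIF instead, and TLR4 uses both. In the kidney these receptors are known from infiltrating and resident macrophages and from tubule cells.

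Each value comes from probes at fixed places on the genome, and for the receptors and the inhibitor these places decide what was read. The probe bases are shown for the genes where 1 probe was printed repeatedly or where several probes measured different stretches. Positions are on mouse build mm9 per the file headers. No gene annotation of that build was used, so exons and untranslated regions were not assigned. Each line gives 30 of the 60 bases, 5′ to 3′, and capitals mark the hexamer AATAAA, the usual polyadenylation signal, searched on the strand of the probe and held by 4.78% of all 41174 probes. The Tlr2 probe lay on chr3:83640344-83640403, minus strand. The first Tlr3 probe lay on chr8:46481729-46481788 and the second on chr8:46482009-46482068, minus strand. The Myd88 probe lay on chr9:119245322-119245381, minus strand. The first Tlr4 probe lay on chr4:66503724-66503782 and the second on chr4:66590556-66590615, both plus strand and 86773 bases apart. The Irak3 probes lay on chr10:119578999-119579058, chr10:119579589-119579648 and chr10:119580091-119580150, minus strand.
Tlr2: gggtaaatctgagaactgcAATAAAgtcct
Tlr3 first probe: agacgtttatagAATAAAagataattgctt
Tlr3 second probe: ttacccattaattcttgaggtgtatcacag
Tlr4 first probe: tcagaaaagtatggaggtttcttggtaaac
Tlr4 second probe: aagacatttctaagatcttaggattgctaa
Irak3 first probe: gctagggatactgacagtctatttgcttcc
Irak3 second probe: ggaagtctattccttcctccaaacagaata
Irak3 last probe: atgatgaaaaccagaataaccattcagtac
Myd88: tctaccatagaggcaatgtcatggtccctc
The hexamer stood in the Tlr2 probe and in the first Tlr3 probe, and in none of the other probes shown.

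With HMPA, 5 of the 9 measured genes fell and none rose. Cd14, Lbp, Tlr2, Tlr7 and Tlr4 were 4.93-, 3.91-, 3.27-, 2.28- and 2.08-fold lower. Irak3, Ly96, Myd88 and Tlr3 did not meet the rule of size, which asked for a mean change of 2-fold or more, with each array showing 1.5-fold or more the same way. Over all genes, 7.72% were lower and 6.65% were higher by that rule, and no gene met it when the arrays were combined as red over green, which removes the diet. Genes called by diet could not meet it there, because their red over green ratio changes sign between the arrays. That count is therefore not an error rate of the calls. All 9 ratios were below 0 on both arrays. Of all genes, 53.9% had a mean below 0, and the share below 0 on both arrays was not computed. The median log2 ratio of the 9 was -1.06 (-1.00 on array 1 and -1.11 on array 2), against -0.04 over all genes. Each of the 9 was well above background in all 4 channels, as were 15232 of all 16692 genes. In whole kidney, fewer cells that carry a transcript and less of it per cell cannot be told apart.

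**Figure D1:**
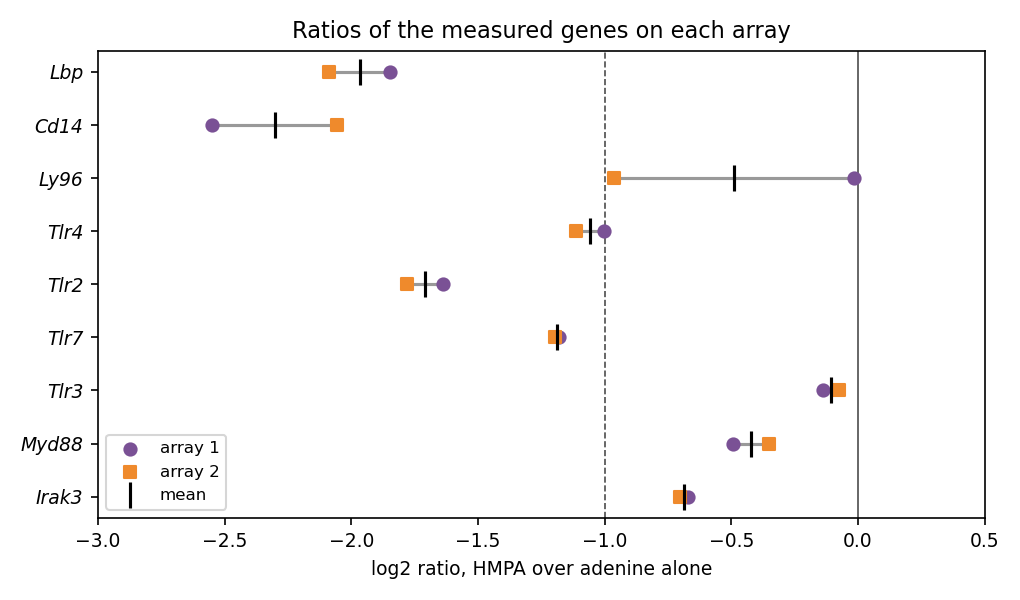
Log2 ratio of HMPA over adenine alone (x axis) for the 9 measured genes (y axis), with a circle for array 1, a square for array 2 and a bar for their mean; the dashed line marks 2-fold lower. Cd14 lies lowest at -2.30, Tlr3 highest at -0.11, and Ly96 has the widest gap between the arrays.

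The proteins that carry lipopolysaccharide to TLR4 held both the largest falls and the widest disagreement. Lbp encodes the acute-phase protein that extracts lipopolysaccharide and passes it to CD14. Its normalised signal was 233 and 197 with HMPA, against 838 and 836 with adenine alone, on arrays 1 and 2. Each HMPA signal lay below each adenine signal, and the log2 ratio was -1.97 ± 0.12. The Lbp probe covered an interval of 3543 bases on chr2:158154142-158157684, plus strand, far longer than the probe itself. Only 239 of all measured genes had a lower mean ratio.

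CD14 is the co-receptor that hands lipopolysaccharide on to TLR4, and monocytes and macrophages express it strongly. Its probe lay on build mm9 at chr18:36884969-36885028, minus strand. Cd14 gave 2360 and 2652 with HMPA, against 13800 and 11041 with adenine alone, so the conditions were far apart on each array. Its log2 ratio was -2.55 on array 1 and -2.06 on array 2, a mean of -2.30 ± 0.25 and the lowest of the 9. It stood at rank 121 from the lowest of the 16692 genes.

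Ly96 encodes MD-2, the small protein bound to the outer part of TLR4 that makes the lipopolysaccharide pocket. Its signal was 330 and 235 with HMPA, against 334 and 458 with adenine alone. The array 1 signals were nearly equal and the fall was seen on array 2 alone. The log2 ratios were -0.02 and -0.96, a mean of -0.49 ± 0.47, the widest gap of the 9, where the median gap from the mean over all genes was 0.11. With Feature Extraction's own ratios the arrays gave -0.32 and -0.73, and the rule was again not met.

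TLR4 is the receptor for lipopolysaccharide. Its first probe read 124 and 111 with HMPA, against 249 and 241 with adenine alone. No HMPA signal reached an adenine signal, and the log2 ratio was -1.06 ± 0.06. This gene sits at the edge of the rule, and array 1 alone gave -1.00. That probe was printed 10 times on each array. The repeat spots had a mean of -1.00 ± 0.14 (SD, n = 10 spots) on array 1, with a lowest of -1.17, a median of -1.03 and a highest of -0.71. On array 2 they had a mean of -1.11 ± 0.12 (SD, n = 10 spots), with a lowest of -1.31, a median of -1.10 and a highest of -0.96. All 20 spots were below 0, and the scatter of spots was larger than the distance between the arrays. The second probe, 86773 bases farther along the plus strand, was not well above background in either condition and was not used.

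Tlr4 fell less than Cd14 and Lbp on both arrays. The difference between Tlr4 and Ly96 was -0.98 on array 1 and -0.15 on array 2, so the arrays did not give 1 size for it. Cd14 minus Lbp was -0.70 on array 1 and 0.03 on array 2, and their order was not settled.

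**Figure D2:**
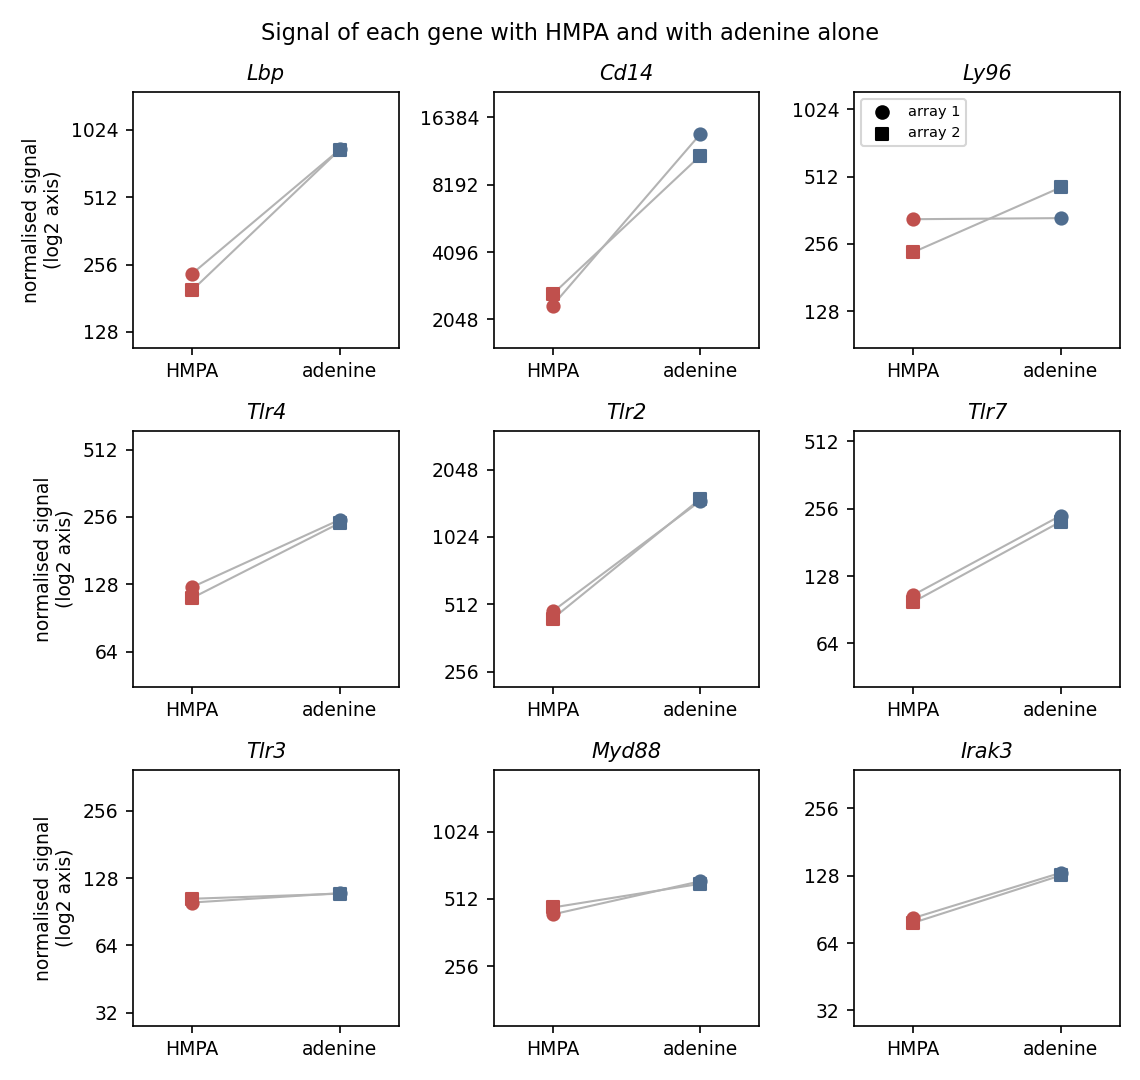
Normalised signal (log2 axis, 1 panel per gene, each spanning the same fold range) in HMPA kidney at the left and adenine kidney at the right of each panel; circles are array 1, squares array 2, and a line joins the channels of 1 array. The HMPA signals lie below the adenine signals in all panels, narrowly for Tlr3, and the array 1 line is nearly flat for Ly96.

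TLR2 binds bacterial lipoproteins at the cell surface, paired with TLR1 or TLR6. Tlr2 gave 477 and 441 with HMPA, against 1484 and 1515 with adenine alone. The conditions did not overlap, and the log2 ratio was -1.71 ± 0.07. Its probe was also printed 10 times. The spots had a mean of -1.64 ± 0.14 (SD, n = 9 usable spots) on array 1, with a lowest of -1.84, a median of -1.61 and a highest of -1.42. On array 2 the mean was -1.78 ± 0.29 (SD, n = 10 spots), with a lowest of -2.09, a median of -1.82 and a highest of -1.22. All 19 usable Tlr2 spots were at or below -1.22. The median SD of all 245 probes printed 10 times was 0.10 on array 1 and 0.09 on array 2, so the Tlr2 spots of array 2 scattered more widely than most. Tlr2 minus Tlr4 was -0.64 on array 1 and -0.67 on array 2. Its partner Tlr1 fell as well, at 121 and 119 with HMPA against 253 and 257 with adenine alone, a log2 ratio of -1.09 ± 0.03. Tlr6 gave -0.96 ± 0.0079, just short of the rule, at 119 and 110 with HMPA against 232 and 214 with adenine alone. Tlr1 and Tlr6 are close paralogs, and whether their probes share RNA was not tested.

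Of the endosomal receptors for RNA, Tlr7 fell and Tlr3 did not meet the rule. TLR7 recognises single-stranded RNA in endosomes and signals through MyD88. Its probe, on chrX:163743189-163743248, minus strand, read 105 and 97.9 with HMPA, against 239 and 224 with adenine alone. The conditions were well separated, and the arrays gave nearly the same log2 ratio, -1.18 and -1.20.

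TLR3 recognises double-stranded RNA. Its brighter probe read 99.6 and 104 with HMPA, against 110 and 109 with adenine alone. Those signals nearly met, and the log2 ratio was -0.11 ± 0.03. The second Tlr3 probe gave -0.06 ± 0.0039. Both stretches of the transcript, within 340 bases of each other, had a ratio near 1. Tlr7 minus Tlr3 was -1.04 on array 1 and -1.12 on array 2, a gap many times the distance between the arrays.

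MyD88 is the adaptor that TLR2, TLR4, TLR7 and the signalling interleukin 1 receptors share. Its probe read 436 and 468 with HMPA, against 613 and 598 with adenine alone. The conditions did not overlap, but the log2 ratio of -0.42 ± 0.07 was too small for the rule. The probe was printed 10 times, with 9 usable spots on each array. They averaged -0.49 ± 0.12 on array 1, with a lowest of -0.63, a median of -0.54 and a highest of -0.27. On array 2 they averaged -0.35 ± 0.13, with a lowest of -0.58, a median of -0.28 and a highest of -0.21 (SD, n = 9 spots each). All 18 spots were below 0. Tlr4 minus Myd88 was -0.51 on array 1 and -0.76 on array 2.

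**Figure D3:**
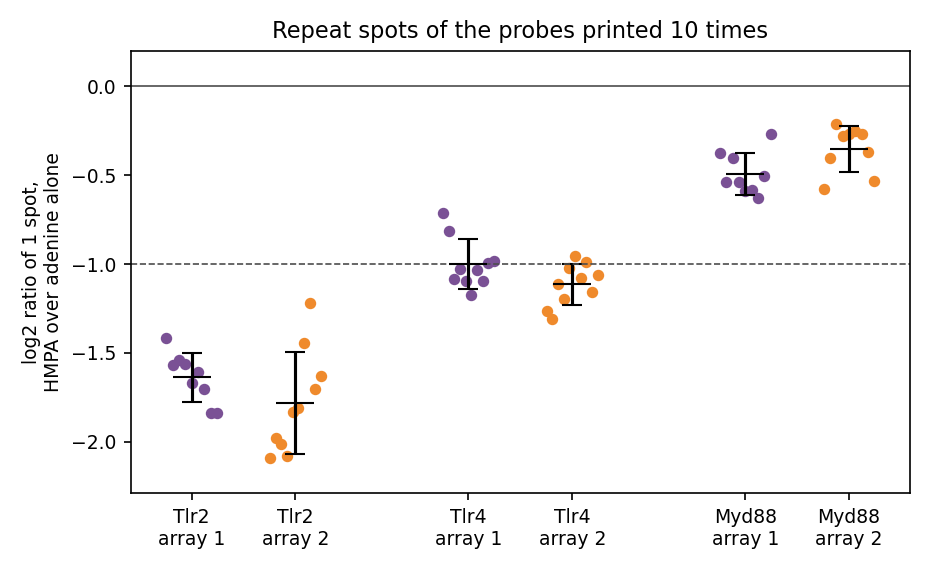
Log2 ratio of each usable repeat spot (y axis) for the probes of Tlr2, Tlr4 and Myd88 on arrays 1 and 2 (x axis); black bars are the mean and SD over spots of 1 array, and the dashed line marks 2-fold lower. Tlr2 spots lie between -2.09 and -1.22, Tlr4 spots between -1.31 and -0.71 and Myd88 spots between -0.63 and -0.21.

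IRAK-M, the product of Irak3, is a kinase-like protein without kinase activity that restrains MyD88 signalling and is found mainly in monocytes and macrophages. Its brightest probe read 82.8 and 78.8 with HMPA, against 132 and 128 with adenine alone. The conditions were separate, with a log2 ratio of -0.69 ± 0.016, which missed the rule. These signals include the offset of 50 added during background correction. Before any correction, the spot stood only 11.3 and 34.8 units above its local background with HMPA, against 106 and 87.7 with adenine alone. Feature Extraction's ratio, which adds no such offset, was -1.75, and an offset of 10 gave -1.20. Under both of these the rule was met.

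The other Irak3 probes gave -0.25 and -0.20 with the offset of 50, and neither was well above background in all 4 channels. Feature Extraction's ratios for them were -1.39 and -1.62. Across 1152 bases of the gene, all 3 probes thus pointed down, by an amount that the handling of a low signal decided. The same held in part for Tlr7, 22.3 and 57.8 units above its background with HMPA against 233 and 200 with adenine alone. Its ratio was -1.93 by Feature Extraction and -1.67 with an offset of 10. The bright Cd14 spot barely moved, at -2.29 and -2.27.

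**Figure D4:**
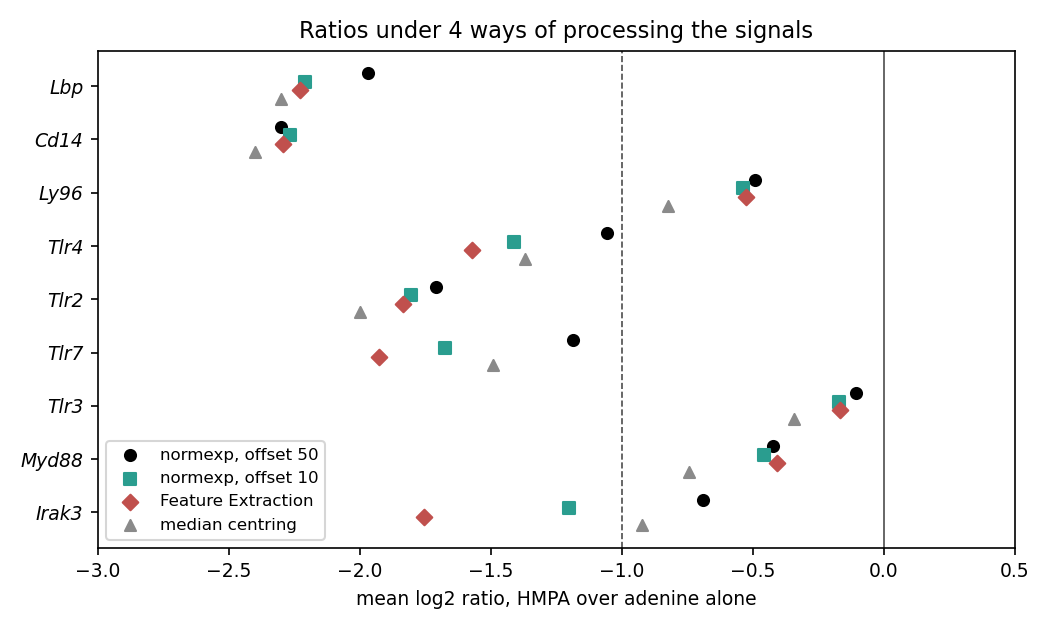
Mean log2 ratio of HMPA over adenine alone (x axis) for each gene (y axis) under 4 ways of processing the signals, named in the legend; the dashed line marks 2-fold lower. Irak3 lies at -1.75 and Tlr7 at -1.93 by Feature Extraction, against -0.69 and -1.19 by normexp with an offset of 50, while Cd14 stays at -2.30 and -2.29.

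Promoter windows were read for Tlr2, Tlr3, Myd88, Irak3 and Tlr13 from RefSeq, build GRCm38.p6, running from 250 bases before to 50 bases after the start of each gene. Of the 10 genes these 5 matched by symbol, and Irak3 had a window for each of 2 starts. On both strands the searches covered the NF-kappaB motif, the interferon-stimulated response element (ISRE), the PU.1 core GAGGAA and the AP-1 motif TGANTCA. The stretches with a match are shown because Tlr2 fell while Tlr3, Myd88 and Irak3 did not meet the rule, and Tlr13 was read on no probe. Each line gives 30 bases as the RefSeq table has them, 5′ to 3′, with the match in capitals.
Tlr2 upstream: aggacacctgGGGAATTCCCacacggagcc
Tlr2 at the start: ccctgacctgGGGACATCCCcttccctcac
Tlr3: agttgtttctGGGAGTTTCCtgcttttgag
Myd88: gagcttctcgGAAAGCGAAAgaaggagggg
Irak3: gttgaagcactgcGAGGAAagaaagggaga
Tlr13: aaaaaaagagaaGAGGAAggaaatgtctca
The Tlr2 window (chr3:83841559-83841858, minus strand) held an NF-kappaB match at -172 to -163, overlapped by another that began 1 base earlier, and a second at -8 to 2 around the start. The Tlr3 window (chr8:45410331-45410630, minus strand) held 1 at -211 to -202. The Myd88 window (chr9:119339969-119340268, minus strand) held the interferon element at -40 to -31. The PU.1 core stood at 34 to 39 in the second Irak3 window (chr10:120202081-120202380, minus strand) and at -83 to -78 in the Tlr13 window, and no AP-1 match was in these windows. Of all 32851 promoter windows in the table, 8.46% held the NF-kappaB motif, 28.3% the PU.1 core, 3.44% the interferon element and 7.81% the AP-1 motif. NF-kappaB letters thus stood both in Tlr2, which fell, and in Tlr3, whose ratio was near 1. A match describes the letters and says nothing of binding in these kidneys.

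The rest of the pathway was read from 10 lists that hold 103 other genes, 90 of them measured. Of these 90, 32 fell (35.6%), 4 rose and 54 met neither side of the rule, with a median log2 ratio of -0.60. Over all genes, 7.72% fell and 6.65% rose. With Feature Extraction's ratios 47 fell, with an offset of 10 there were 42, with median centring 39 and with the mean over all probes 27, and 4 rose under each. The number of all genes that fell moved too, to 2463, 1786, 1972 and 1017 in that order, against 1289. Of 4 other Toll-like receptors measured, 1 fell, Tlr1. By Feature Extraction 3 fell, with Tlr6 at -1.47 and Tlr5 at -1.10, and Tlr5 was not well above background with HMPA. Of 8 accessory proteins, 2 fell and 1 rose, with a median of -0.07. Ly86, which encodes the MD-2 relative MD-1, read 972 and 950 with HMPA against 4712 and 4183 with adenine alone, a log2 ratio of -2.21 ± 0.07. Cd36, a scavenger receptor that also takes up fatty acids in tubules, read 3579 and 4848 with HMPA against 1020 and 970 with adenine alone, a ratio of 2.07 ± 0.25. Unc93b1, the chaperone that brings TLR3 and TLR7 to endosomes, gave -1.19 ± 0.34, and its call was lost with the mean over all its probes, -0.61, and on array 2 alone, -0.85.

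Few adaptors and kinases between receptor and nucleus met the rule, which 7.72% of all genes met as lower and 6.65% as higher. None of the 3 other TIR adaptors measured met the rule, and Tirap, the bridge from TLR2 and TLR4 to MyD88, gave -0.48 ± 0.05. Of 16 kinases and ubiquitin ligases none fell and 1 rose, with a median of -0.03, against -0.04 over all genes. Counts this small do not set them apart from all genes. The count of none depended on the processing. By Feature Extraction 2 fell, Map3k8 at -2.01 and Ikbke at -1.36, and Ikbke was not well above background in all 4 channels. Map3k8 also met the rule with an offset of 10 and with median centring, at -1.13 in the latter. The one that rose was Chuk, which encodes IKK-alpha, at 1552 and 1816 with HMPA against 571 and 454 with adenine alone, a ratio of 1.72 ± 0.28. Of 12 inhibitors and feedback regulators, 4 fell and 1 rose, with a median of -0.77. Nfkbia, the NF-kappaB inhibitor that NF-kappaB itself induces, gave -1.82 ± 0.32, at 2869 and 2036 with HMPA against 8067 and 8973 with adenine alone. Inpp5d, the phosphatase SHIP-1 of blood cells, gave -1.62 ± 0.06 and Nfkbiz, a nuclear NF-kappaB regulator, -1.55 ± 0.04. Sigirr, a receptor-like inhibitor, rose by 1.63 ± 0.04 on the log2 scale, at 3427 and 3643 with HMPA against 1140 and 1147 with adenine alone. The other 7 met neither side of the rule, and 6 of the 12 fell by Feature Extraction.

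Of 11 transcription factors, 5 fell and none rose, with a median of -0.91, and 3 fell with the mean over all probes. Cebpb, a driver of inflammatory genes, gave -1.72 ± 0.30 and Relb, of the NF-kappaB family, -1.46 ± 0.35. Atf3, a stress-induced repressor, gave -1.32 ± 0.09, and Nfkb1 gave -1.15 ± 0.11 but only -0.64 with the mean over its probes, which ended its call. Of 5 endosomal proteases that cut Toll-like receptors, 3 fell, with a median of -1.25. Ctss, which is abundant in macrophages, fell most, at 4335 and 2822 with HMPA against 26850 and 30849 with adenine alone. Its ratio was -3.04 ± 0.41, Ctsk gave -1.88 ± 0.33, and Ctsl gave -1.25 ± 0.20, or -0.97 by Feature Extraction, which ended its call.

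Of 10 endogenous proteins reported to act on Toll-like receptors, 7 fell and 1 rose, with a median of -1.82. S100a9 and S100a8 encode the subunits of calprotectin, a TLR4 ligand released by myeloid cells. S100a9 read 475 and 478 with HMPA against 5650 and 4493 with adenine alone, a ratio of -3.40 ± 0.17, and S100a8 gave -2.55 ± 0.24. The matrix proteins Tnc and Fn1 gave -2.38 ± 0.15 and -1.86 ± 0.04, and the mean over all probes of Fn1, -0.95, ended its call. Hspd1, a mitochondrial chaperone named here after its value was seen, was the one that rose, at 1.09 ± 0.03.

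Of 15 target genes measured, 7 fell and none rose, with a median of -0.91. By Feature Extraction 13 fell, with a median of -2.56, and with an offset of 10 there were 11. Those added by Feature Extraction were Il1a, Tnf, Cxcl2, Ptgs2, Cd40 and Cd86, named after their values were seen, as were Tlr5, Tlr6, Map3k8 and Ikbke above. Of these, Il1a, Cxcl2 and Ptgs2 were not well above background with HMPA, and Tnf was not in all 4 channels. Il6, one of the 7 and also named after its value was seen, was not well above background with HMPA either. The sizes of these ratios are therefore uncertain. Il1b, which encodes interleukin 1 beta, read 191 and 166 with HMPA against 1107 and 1020 with adenine alone, a ratio of -2.58 ± 0.04. Acod1, the itaconate-making enzyme of activated macrophages, gave -2.35 ± 0.28. The chemokine genes Cxcl1 and Ccl2 gave -2.32 ± 0.27 and -2.03 ± 0.19. Of the 6 interleukin 1 family receptors, 3 fell, with a median of -0.72. Il1r1 gave -1.32 ± 0.04. Il1r2, a decoy receptor, gave -1.45 ± 0.15, or -0.90 with the mean over its probes. Il18r1 gave -1.25 ± 0.30, or -0.94 on array 1 alone, and both calls ended there.

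**Figure D5:**
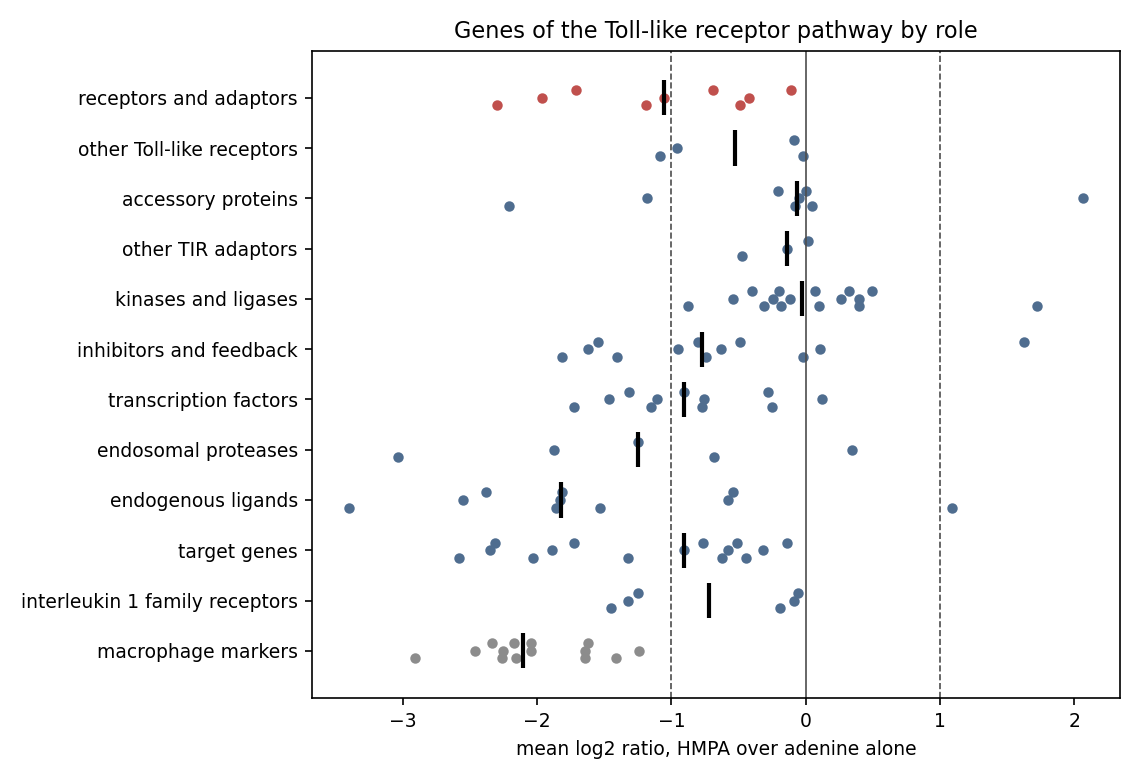
Mean log2 ratio of HMPA over adenine alone (x axis) of each measured gene, grouped by role (y axis), with the receptors and adaptors in red, other pathway genes in blue and macrophage markers in grey; black bars are list medians and dashed lines mark 2-fold. The kinases centre on -0.03, the receptors and adaptors on -1.06 and the macrophage markers on -2.10.

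Markers of some cell types fell as these genes did, while markers of others rose or did not meet the rule. All 14 macrophage and monocyte markers fell, with a median of -2.10, led by Lyz2 at -2.91 ± 0.10, C1qc at -2.47 ± 0.08 and Mrc1 at -2.34 ± 0.26. Their summed signal was 15154 and 13599 with HMPA, against 87994 and 86183 with adenine alone, and no defining marker was below background. The markers ran from -2.91 to -1.24. Cd14, Lbp and Tlr2 lay inside that range, and the other 6 genes lay nearer 0 than every marker. By Feature Extraction's ratios, Tlr4, Tlr7 and Irak3 lay inside the range too and only Tlr3, Ly96 and Myd88 lay outside it. With the mean over all probes, the markers Csf1r and Ptprc gave -0.79 and -0.54, which ended their calls. The range then reached -0.54, and Tlr3, Ly96, Myd88 and Irak3 lay outside it. Csf1r and Ptprc were named after their values were seen. The part that macrophage RNA had in the lower receptor signals was not tested.

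Of 4 neutrophil markers measured, 1 fell, with a median of -0.62. Their summed signals were 308 and 278 with HMPA against 444 and 453 with adenine alone. These sums include the offset added to each signal during background correction. By Feature Extraction, which adds no such offset, Retnlg gave -2.83, Csf3r -2.13, Ltf -0.88 and Mpo 0.47. These 4 were named after their values were seen. The size of their ratios thus depended on the processing, and which step of it mattered was not tested. None of 7 lymphocyte markers met the rule. Of 7 fibroblast and pericyte markers 6 fell, with a median of -1.85 and summed signals of 15461 and 13125 with HMPA against 102074 and 89197 with adenine alone. Of 10 proximal tubule markers 9 rose, with a median of 2.63 and summed signals of 266673 and 266992 with HMPA against 33842 and 48214 with adenine alone. Of 10 markers of the later nephron 7 rose, with a median of 1.33, and none of 9 podocyte and endothelial markers met the rule. Of 5 hepatocyte markers measured, given because Lbp is a major product of the liver, 2 rose and none fell, with a median of 0.53. The kidney-defining genes Slc34a1, Umod and Aqp2 were above background in all 4 channels. Median centring in place of loess moved the median of all genes to -0.22, with 750 genes higher and 1972 lower (27.6% of calls higher), against 1110 higher and 1289 lower (46.3%). All 9 genes were still below 0 and the same 5 fell.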

How the data were processed

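Kidney RNA was hybridised on 2 dual-colour Agilent arrays with swapped dyes, which were read as repeats of 1 RNA sample per condition. Per the file headers, the authors quantified spots with Feature Extraction 12.2.0.7. The submitters' processing notes name version 9.5. The deposited intensity of each spot and of its local background is not normalised, per the file headers. The deposited ratio column and value table hold log10 of red over green, background-subtracted and dye-normalised by Feature Extraction, equal within 0.00499.

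With R 4.3.3 and limma 3.58.1, background was corrected by normexp (offset 50), ratios were normalised by loess within arrays and turned to HMPA over adenine alone on the log2 scale, and repeat spots were averaged. Flagged and control spots were left out. A probe was kept if well above background in 1 condition on both arrays (25138 of 41174), and the brightest kept probe stood for a gene. Tables and figures used Python 3.11.15, numpy 2.4.6, pandas 2.3.3 and matplotlib 3.10.9. The ratio procedure was tested on simulated data with changes planted in bright probes only. It was therefore not tried on changes in probes as dim as those of Irak3, Tlr7, Tlr4 and Tlr3. The number of arrays limits precision. Between 57.9% and 67.9% of spots were well above background in a channel.

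The 10 genes, the pathway lists and the rule of size were chosen with earlier results of these data known. All 10 genes are reported by probe. From each other list, up to 4 genes that met the rule are named by size of ratio, or up to 2 where none did. Up to 3 are named per marker list. Genes stated to be named after their values were seen come on top of these numbers. Alternatives covered background, scaling, filters, probes, arrays and the rule.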

Additional observations from a re-analysis of the deposited data

How the results depend on the processing

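The count of receptors and adaptors that fell was 5 or 6 of 9 under all 11 alternatives, and none rose in any. Of 90 gene values under alternatives, 87 kept their direction and their side of the rule, 3 newly met it and none reversed. The 3 were Irak3 with Feature Extraction's ratios (-1.75), the deposited value table (-1.76) and an offset of 10 (-1.20). Tlr7 reached -1.93 with both of these ratio sources. Many of the 90 values could not change. Both filter settings kept the brightest probe of each of the 9 genes, since each was well above background in all 4 channels. The mean over all probes could move only Tlr3 and Irak3, which had more than 1 kept probe. The deposited table nearly repeats Feature Extraction's ratios. The median of the 9 genes was -1.37 with median centring, -1.75 when Feature Extraction's ratios were used, -1.76 with the deposited table, -1.41 with an offset of 10 and -1.28 without background correction, against -1.06. With 1 array left out it ranged between -1.11 and -1.00. Over all genes, the number lower was 1972 with median centring, 2463 when Feature Extraction's ratios were used, 2461 with the deposited table and 2698 under a 1.5-fold rule, against 1289. The number higher was 2043, 2040 and 2256 under the last 3 of these, against 1110. Among the other genes named, Feature Extraction gave larger falls for Acod1 (-4.10), Il1r2 (-3.73), S100a8 (-3.43), Il18r1 (-2.59) and Ctsk (-2.53), and the mean over probes gave a smaller one for Tnc (-1.43). The larger offset compresses ratios of dim probes by construction. The other causes were not tested. No paired analysis was possible because each ratio is already taken within 1 array and the labels name no replicate samples beyond the dye swap. Low signal over background limits the size of the ratios of Irak3, Tlr7 and Tlr4, which moved with the handling of background (Tlr4 to -1.57 by Feature Extraction).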
